A study of Mus musculus with 15 samples.

Results

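The genes Adam17, Ctss and Plaur were described through the sites that RevErbalpha and RevErbbeta shared in mouse macrophages. The members were all sites that the authors' summary table assigned to these 3 genes by name. They numbered 5 of the 1544 common sites: 1 at Adam17, 1 at Ctss and 3 at Plaur. The table gave gene-level values for 1220 genes, and these were 3 of them. The authors assigned each site to the nearest expressed gene, so the link from site to gene is one of distance.

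Adam17 encodes a membrane-anchored metalloprotease, also called TACE, that sheds TNF and other proteins from the cell surface. Ctss encodes cathepsin S, a lysosomal cysteine protease that cuts the invariant chain in antigen-presenting cells and can also act outside the cell. Plaur encodes the urokinase receptor, a lipid-anchored protein that holds the serine protease urokinase (gene Plau) at the surface, where it turns plasminogen into plasmin. RevErbalpha and RevErbbeta are nuclear receptors of the circadian clock that repress transcription through corepressors. They bind the motif AGGTCA, usually after an A/T-rich stretch, and in macrophages many of their sites are enhancers.

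Binding was measured by ChIP-seq with streptavidin beads in RAW cells, a line of mouse macrophages, which expressed biotinylated RevErbalpha or RevErbbeta. RAW cells labelled BirA, the biotin ligase, were the background. Their column is named BirA-input, so it may also be an input library. Capped nascent RNA was measured by 5'GRO-seq in RAW cells with tagged RevErbalpha (BLRP-RevErba) and in control RAW cells (BTEV-Ctrl). Nascent RNA was measured by GRO-seq in bone marrow derived macrophages grown with M-CSF. One library carried Tie2-Cre with RevErbalpha flox/flox and RevErbbeta flox/flox (labelled DKO), and the other carried the same floxed alleles without Cre (labelled WT). The labels give a C57Bl6 background for all groups. The Tie2 promoter drives Cre in blood-forming and endothelial cells, and the labels give neither the age nor the number of the mice. Tagged protein was expressed in addition to the cells' own, and its amount was not given. Each group is 1 sample, so runs are taken as repeats of 1 sample and no p-value is given. The column heads list treated libraries as well (KLA and serum shock), and do not say whether a given run was treated. Whether treatment enters the spread between runs was not tested.

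ChIP-seq depth ranged from 598490 to 5276592 tags over the 3 runs of each RevErb, of which only RevErbalpha run 1 and RevErbbeta runs 1 and 2 held over 3000000. The BirA library held 10548880 tags, and 5'GRO-seq held 7238710 with tagged RevErbalpha and 18708148 in control cells. The floxed gene Nr1d1 itself read 9.44 and 9.56 in the runs labelled DKO and 7.91 and 7.48 in those labelled WT. Nr1d1 also has 3 common sites, whose 5'GRO-seq differences (tagged RevErbalpha minus control, log2) ran from -4.53 to -1.43. The part of RevErb binding in the higher DKO value was not tested. Which part of the gene the gene-level log2 values cover is not given, so the deletion could not be checked. DKO and WT therefore stand below for the labels of the libraries. Only genes with a common site have gene values. Among them, 4 of 11 macrophage markers were present (Csf1r, Cd14, Fcgr1 and Cx3cr1), and 0 of the 19 markers of lymphocytes, neutrophils, fibroblasts and endothelial cells, as far as a table limited to genes expressed near sites can show.

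The 5 sites fell into 3 chromatin classes of the authors. Positions are on mm9, each site is 157 bp long, and exons and introns were not assigned. The Adam17 site (chr12:21376327-21376483) lay 3047 bp downstream of the gene's start, in the class of enhancers that are not intergenic. The Ctss site (chr3:95327754-95327910) was an intergenic enhancer 2876 bp upstream. Plaur had a non-intergenic enhancer 20007 bp upstream (chr7:25227434-25227590), an intergenic enhancer 11634 bp upstream (chr7:25235807-25235963) and a site 554 bp past the start (chr7:25247995-25248151) where H3K4me3 exceeded H3K4me1, a promoter-like balance of marks. The 4 enhancers were in the authors' list of sites with high H3K4me1 and low H3K4me3, and the Plaur start site was not. Plaur was 1 of 6 genes, among 54 with exactly 3 sites, whose sites covered all 3 classes.

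The sequence before each gene's start is shown so that the 3 promoters can be set against the RevErb motif. The sequences are RefSeq windows on GRCm38.p6, 250 bases up to the start, and their coordinates do not compare with the mm9 positions. Capitals mark AGGTCA, the activator protein 1 motif TGANTCA and the PU.1 core GAGGAA, searched on both strands.
Adam17, minus strand, chr12:21373633-21373882: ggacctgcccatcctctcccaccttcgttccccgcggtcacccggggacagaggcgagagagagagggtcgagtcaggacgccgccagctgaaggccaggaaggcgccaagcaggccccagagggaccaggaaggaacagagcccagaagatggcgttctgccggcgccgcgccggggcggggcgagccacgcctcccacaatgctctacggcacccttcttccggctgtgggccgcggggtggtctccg
Ctss, plus strand, chr3:95526536-95526785: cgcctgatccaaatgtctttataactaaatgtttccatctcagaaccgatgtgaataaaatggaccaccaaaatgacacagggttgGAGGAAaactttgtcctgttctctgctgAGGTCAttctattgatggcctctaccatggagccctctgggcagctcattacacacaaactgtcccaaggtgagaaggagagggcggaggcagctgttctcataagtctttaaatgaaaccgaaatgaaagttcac
Plaur, plus strand, chr7:24462233-24462482: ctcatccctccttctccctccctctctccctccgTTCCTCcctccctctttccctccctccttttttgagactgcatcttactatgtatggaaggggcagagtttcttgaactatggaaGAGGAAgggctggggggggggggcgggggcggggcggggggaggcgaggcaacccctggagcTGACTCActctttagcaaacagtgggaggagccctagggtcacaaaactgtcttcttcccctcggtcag
The Ctss window held 1 AGGTCA, at 136 to 131 bases before the start, and 1 GAGGAA at 164 to 159. The Plaur window held TGACTCA at 69 to 63 bases and GAGGAA at 131 to 126 bases and, on the other strand, at 216 to 211. The Adam17 window held none of the 3 motifs. AGGTCA occurred in 14% of all 32851 RefSeq windows of this length, TGANTCA in 6.75% and GAGGAA in 23.3%. The longer form TAGGTCA was in 2.23% and in none of the 3. By the authors' distances all 5 sites lie outside the 250 bases before the start, so the letters describe the promoters and not the bound sites.

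The first comparison asked how strongly each RevErb bound these sites. Adam17 had the strongest site of the 5, followed by the Plaur site 11634 bp upstream, while the Plaur start site was among the weakest of all common sites. Every RevErb run was above BirA at all 5 sites, as it was at 97.3% of all common sites. At the Plaur start, RevErbalpha run 2 and RevErbbeta run 3 held only about 0.32 and 0.12 tags. RevErbbeta run 3 held about 0.70 at the far Plaur site. Scaling to a common total raises such values more in shallow runs than in the deeper BirA library, so there the order does not show binding. Values are log2 of tags per 10000000, with 1 added.

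At Adam17, RevErbalpha runs read 4.98, 6.70 and 7.74 and RevErbbeta runs 8.79, 7.61 and 8.20, against 1.14 for BirA. The mean over both proteins was 7.34, rank 74 of 1544 from the highest. The RevErbalpha runs spread widely (SD 1.39, n = 3 runs), and the deep one was the lowest. At Ctss, RevErbalpha runs read 4.55, 6.58 and 6.91 and RevErbbeta runs 6.0, 5.14 and 5.53, against 1.14 for BirA. The mean was 5.785, rank 584, and close to the median of 5.54 over all sites. The deep RevErbalpha run was again the lowest of its 3, at about 11.8 tags.

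At the Plaur site 11634 bp upstream, RevErbalpha runs read 6.65, 6.08 and 6.83 and RevErbbeta runs 6.27, 8.47 and 5.54, against 0.02 for BirA. The mean was 6.64, rank 204, and RevErbbeta run 2 stood apart from its other runs with about 173 tags. At the site 20007 bp upstream, RevErbalpha runs read 6.05, 5.13 and 4.82 and RevErbbeta runs 4.85, 5.6 and 3.31, against 0.53 for BirA. The mean of 4.96 ranked 1241. At the Plaur start site, RevErbalpha runs read 4.44, 2.50 and 5.59 and RevErbbeta runs 4.93, 5.48 and 1.34, against 0.23 for BirA. The mean of 4.05 ranked 1529 of 1544 and 297 of the 301 sites of its class. Its shallow runs held from about 0.12 to 2.82 tags, so its low mean rests in part on runs with almost no tags. With only the deep runs the mean was 4.82.

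**Figure D1:**
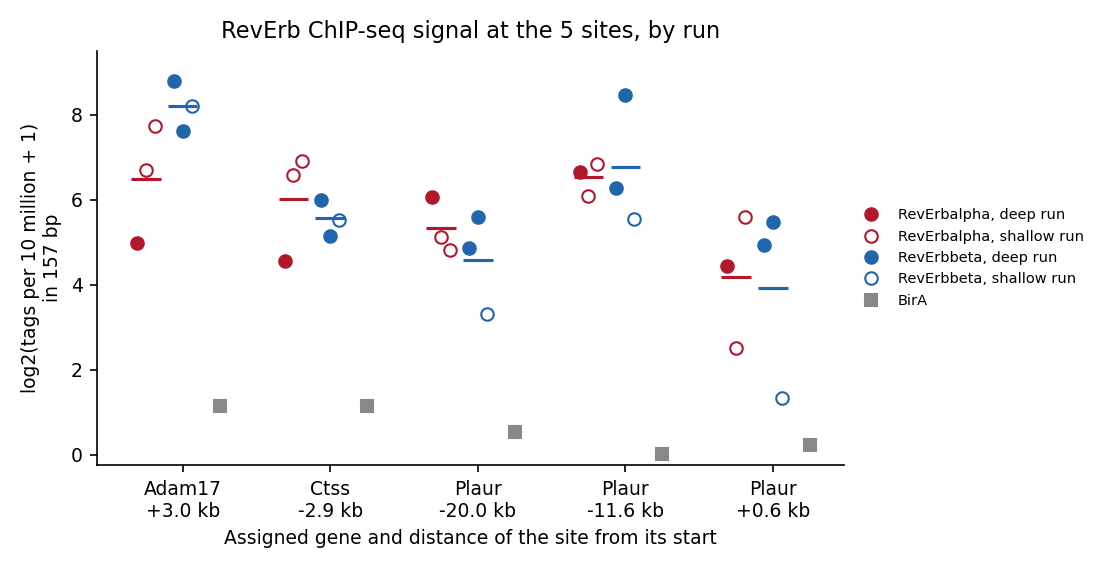
ChIP-seq values (log2 of tags per 10000000 with 1 added, in 157 bp) at the 5 sites, which run from left to right by gene and distance from its start. Circles are runs, filled where the run held over 3000000 tags, bars are means of 3 runs and squares are BirA. All RevErb runs lie above BirA, but some shallow runs at the Plaur start and far upstream site held less than 1 tag. The runs of 1 protein spread over 2 or more log2 units at several sites.

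RevErbbeta exceeded RevErbalpha most at Adam17. The mean was 6.47 for RevErbalpha and 8.20 for RevErbbeta there, a RevErbalpha minus RevErbbeta difference of -1.73 where the median site had -0.285. In this difference the Adam17 site ranked 1504 of 1544 from the highest. RevErbalpha run 3 (7.74) was above RevErbbeta run 2 (7.61), so the runs overlapped. All RevErbalpha runs lay below all RevErbbeta runs at 7.38% of common sites and above them at 1.10%, and at 0 of these 5 sites. The Adam17 difference was -0.98 to -2.36 with 1 run left out and -3.22 with the deep runs alone, always with RevErbbeta higher. The other sites gave no settled order. RevErbalpha minus RevErbbeta was 0.46 at Ctss, 0.75 at the far Plaur site, -0.24 at the Plaur site 11634 bp upstream and 0.26 at the Plaur start, each within the spread of its runs. With the deep runs alone the order turned at Ctss (-1.02) and at the Plaur start (-0.765). The deep runs themselves differ over all sites. The median site read 5.06 in RevErbalpha run 1 and 5.53 and 6.43 in RevErbbeta runs 1 and 2. With these runs a lower RevErbalpha value is therefore usual, so the turn is not particular to these sites. The same offset enters the -3.22 at Adam17.

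The next comparison asked how tagged RevErbalpha related to capped nascent RNA made at the sites. In such bulk libraries, fewer cells making an RNA and less RNA per cell cannot be told apart. The measured differences were not all in 1 direction. Plaur read lower at its start and its far upstream site and higher at the strongly bound site between them. Adam17 and Ctss differed by less than 0.3. The counting intervals given below held 0 at every site but the Plaur start, so opposite directions were not shown. By a difference of 1 or more on the log2 scale, 0 of 5 sites were lower with tagged RevErbalpha, where 20.0% of all common sites were, and 1 of 5 was higher, where 4.92% were. By a difference of 0.5 or more, 2 of 5 were lower (36.3% of all sites) and 1 was higher (14.4%). With so few sites these shares do not set the genes apart from the background.

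At the Plaur start site the log2 value was 5.52 with tagged RevErbalpha and 6.4 in control cells, from about 32.5 and 156 tags in 500 bp. The difference was -0.88, where the median site had -0.23. It ranked 1199 of 1544 from the highest, with 77.6% of all sites higher, so it was not extreme among them. Within its promoter-like class, where the median was -0.09, it ranked 261 of 301. From whole tags the log2 ratio had an exact binomial 95% interval of -1.51 to -0.36, which covers counting error in 2 libraries only. The interval held neither 0 nor the median of all sites. How many of all sites have such an interval was not counted. At the Plaur site 20007 bp upstream the values were 2.91 with tagged RevErbalpha and 3.70 in control cells, a difference of -0.79. These rest on about 4.72 and 22.4 tags, and the interval of -2.52 to 0.67 held 0. At the site 11634 bp upstream the values were 3.16 with tagged RevErbalpha and 2.12 in control cells, a difference of 1.04 and rank 69 of 1544. Only about 5.75 and 6.26 tags lay behind these 2 values, the interval ran from -0.53 to 3.27, and the difference was 0.43 when 10 rather than 1 was added before taking logs.

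At Ctss the values were 6.23 with tagged RevErbalpha and 6.02 in control cells, from about 53.6 and 119.5 tags. The difference of 0.21 had an interval of -0.27 to 0.69. Adam17 was the most strongly bound of the 5 by the mean of all runs. Its values were 4.24 with tagged RevErbalpha and 4.53 in control cells, from about 13 and 41.4 tags. The difference of -0.29 had an interval of -1.31 to 0.64. The depth of these 2 libraries therefore could not show the direction at Adam17 or Ctss.

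**Figure D2:**
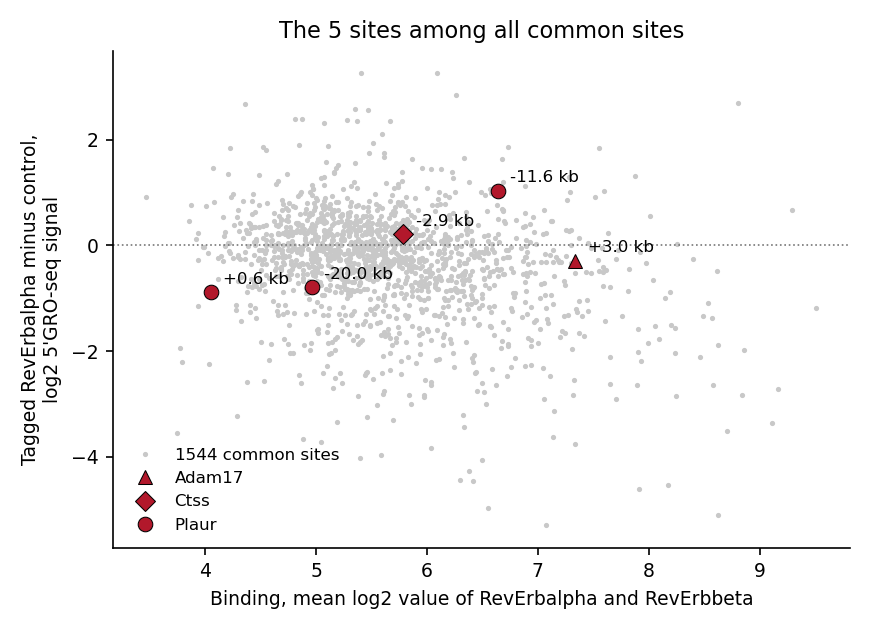
Difference in 5'GRO-seq signal (tagged RevErbalpha minus control, log2) against binding (mean log2 value of RevErbalpha and RevErbbeta) for the 1544 common sites in grey and the 5 sites in red, labelled with their distance from the start. The 5 sites span from 4.05 to 7.34 in binding, and 3 of them lie below 0.

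Binding and transcription of the Plaur sites stood in opposite order in control cells. The strongest site had the lowest 5'GRO-seq value (2.12), the middle one 3.70 and the weakest, at the start, the highest (6.4). The same reversed order was found for 12 of the 54 genes with exactly 3 sites, Plaur included, and the matching order for 7. Of the 204 sites bound at least as strongly as the site 11634 bp upstream, 41 had a mean 5'GRO-seq level as low or lower, that site included. Only 16 sites were bound as weakly as the Plaur start, and 10 of them, it included, had a 5'GRO-seq level as high or higher. The Plaur start is the promoter-like site of the 3, and the others are enhancers. The median control value was 7.28 in its class, against 5.58 in non-intergenic and 6.31 in intergenic enhancers. The part of class in the reversed order was not tested. Binding at the 3 sites spanned 2.59 log2 units. A wider span was found for 5 of the 54 genes, whose median was 1.295. Their 5'GRO-seq differences spanned 1.92, against a median of 1.2, and 15 of the 54 spanned more. Of the 66 genes with 3 or more sites, 40 had sites in both directions.

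The GRO-seq libraries labelled DKO and WT were then compared at the same sites. Signal in DKO was higher at 4 of the 5 sites, by 0.205 to 0.55, and lower by 0.06 at the Plaur start. Signal was higher in DKO by any amount at 52.5% of all common sites. A difference of 1 or more upward was found at 0 of the 5 and at 3.37% of all sites, and 0 of the 5 were lower by 0.5 or more, where 10.7% of all were. Adam17 read 5.125 in DKO and 4.785 in WT, a difference of 0.34 that ranked 342 of 1544. Ctss read 3.955 in DKO and 3.64 in WT, a difference of 0.315. The Plaur start read 5.495 in DKO and 5.555 in WT, and these values ranked 222 and 201 of all sites. The far Plaur site read 2.045 in DKO and 1.84 in WT. The Plaur site 11634 bp upstream was nearly silent, at 0.605 in DKO and 0.055 in WT, and its WT value ranked 1542 of 1544. Its difference of 0.55 passed 0.5, as at 13.5% of all sites, but was 0.0677 with 10 added before the logarithm. No tag numbers can be taken from these columns, so their counting error is unknown. Adam17 and the far Plaur site were lower with tagged RevErbalpha and higher in DKO, as were 32.5% of all sites. Ctss and the Plaur site 11634 bp upstream were higher in both (19.6% of all sites), and the Plaur start was lower in both (29.8%).

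**Figure D3:**
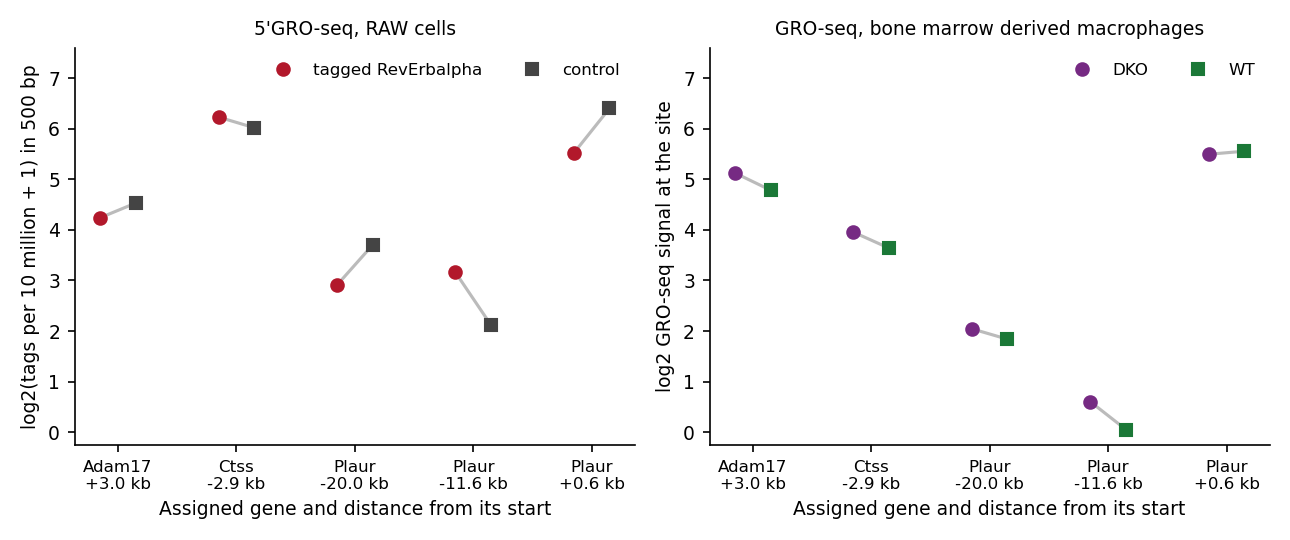
Left, 5'GRO-seq values (log2 of tags per 10000000 with 1 added, in 500 bp) in RAW cells with tagged RevErbalpha (circles) and control RAW cells (squares). Right, log2 GRO-seq signal at the same sites in the DKO (circles) and WT (squares) libraries, 1 value each. The largest gaps on the left are at the 3 Plaur sites, in both directions, and the gaps on the right are 0.55 or less. The counting intervals of both upstream Plaur sites hold 0.

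**Figure D4:**
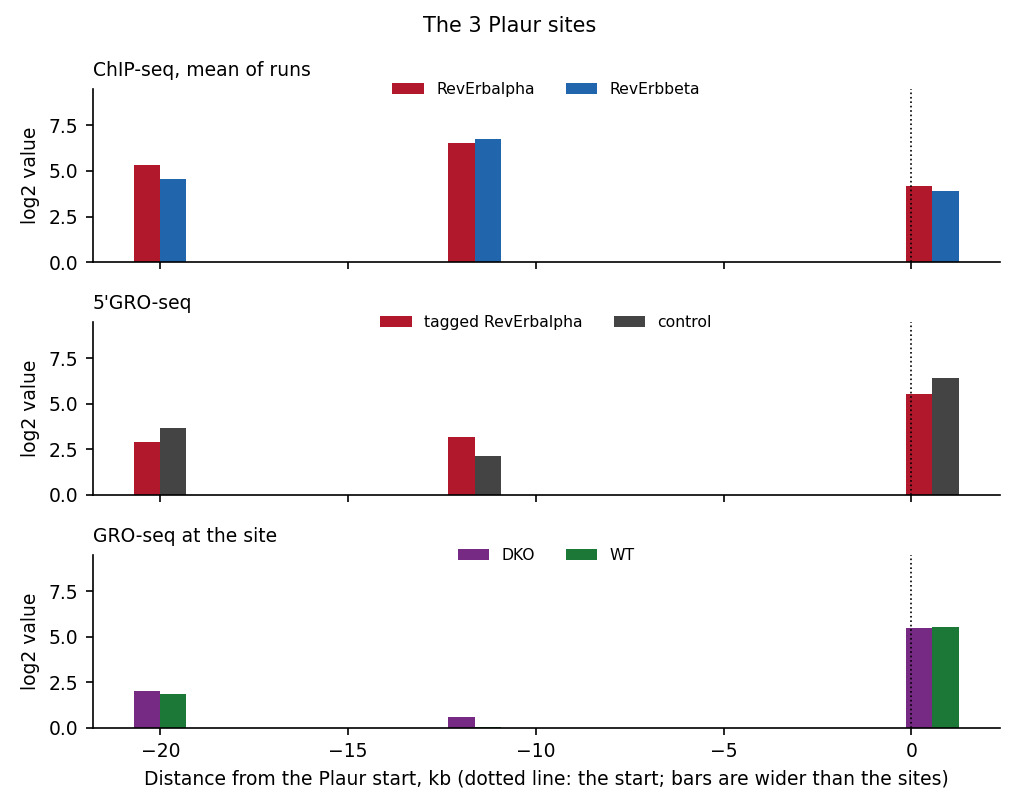
The 3 Plaur sites by distance from the start (kb), with mean ChIP-seq, 5'GRO-seq and GRO-seq values on the log2 scale. The site at -11.6 kb has the highest binding (6.64 over both proteins) and, in control RAW cells and in both GRO-seq libraries, the lowest transcription, and the site past the start has the reverse. With tagged RevErbalpha the far upstream site is lowest (2.91, against 3.16 at -11.6 kb).

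At the level of whole genes, no member differed by 0.5 or more between genotypes. Adam17 was slightly higher in DKO, Plaur slightly lower, and Ctss did not separate the genotypes. Adam17 read 11.48 and 11.59 in the DKO runs and 11.33 and 11.26 in the WT runs. Both DKO runs lay above both WT runs, as for 18.4% of 1220 genes, with a difference of 0.24 (0.185 to 0.295 with 1 run left out). The gaps between runs of 1 genotype were 0.11 and 0.07. Plaur read 9.27 and 9.46 in the DKO runs and 9.52 and 9.58 in the WT runs. Both DKO runs lay below both WT runs, as for 10.0% of genes, with a difference of -0.185. It was -0.09 without DKO run 1 and -0.28 without DKO run 2, so the size rests on which DKO run is used. Ctss read 11.45 and 11.52 in the DKO runs and 11.71 and 11.17 in the WT runs. The WT runs lay 0.54 apart with the DKO runs between them, and the difference of 0.045 became 0.315 with WT run 1 left out and -0.225 with WT run 2 left out. Across all genes the median difference was 0.035, and runs of 1 genotype differed with a pooled SD of 0.23. Whether gene length enters these values is not given, so no meaning was given to differences in level between genes. Of the 4 macrophage markers in the table, Cd14 and Cx3cr1 were higher in each DKO run than in either WT run, and Csf1r and Fcgr1 overlapped. Cx3cr1, a chemokine receptor gene, read 10.24 and 10.40 in the DKO runs and 8.19 and 9.16 in the WT runs. Its part in the members' differences was not tested.

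The genes that act with these 3 were taken from 5 lists of proteases, inhibitors, substrates and partners. Of 124 listed genes, 24 had a common site, under 25 gene IDs since Tfeb has 2. In DKO, 1 of the 25 was higher by 0.5 or more with the runs apart (1.97% of all genes) and 0 were lower (0.738%). Both DKO runs lay above both WT runs for 9 of the 25 (18.4% of all genes) and below for 2 (10.0% of all genes), and 14 overlapped. The median difference of the 25 was 0.125, against 0.035 for all genes.

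Among extracellular proteases and their inhibitors, 9 of 38 genes had a site. Mmp9, a gelatinase, was the one gene past 0.5, with 7.82 and 8.36 in the DKO runs and 7.71 and 6.07 in the WT runs. Its WT runs lay far apart, and the difference of 1.2 was 0.38 without WT run 2. Mmp19, another matrix metalloprotease, read 8.04 and 8.21 in the DKO runs and 7.79 and 7.71 in the WT runs, a difference of 0.375. Plau, which encodes the ligand of the Plaur protein, read 11.20 and 11.20 in the DKO runs and 10.73 and 11.25 in the WT runs, which overlapped. Mmp14, Furin and Plat overlapped as well.

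Among lysosomal proteases and their regulators, 5 of 26 genes had a site, and for 3 of their 6 gene IDs, 2 of them of Tfeb, the DKO runs were both higher than either WT run, as for 18.4% of all genes. Ctsk encodes cathepsin K and had an intergenic site 12688 bp past its start. That site lay 11.9 kb from the Ctss site, the nearest common site to it. At it, 5'GRO-seq read 7.79 with tagged RevErbalpha and 7.70 in control cells. The Ctsk gene read 8.42 and 8.35 in the DKO runs and 8.33 and 7.92 in the WT runs, a difference of 0.26 that was 0.055 without WT run 2. Tfeb, a transcription factor of lysosomal genes, had both DKO runs above under both IDs, with differences of 0.36 and 0.14. Ctsd and Cst3, which encode cathepsin D and the inhibitor cystatin C, overlapped. No other gene of the 20 of MHC class II antigen processing had a common site beside Ctss.

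Of 27 Adam17 regulators and shed substrates, 6 had a site. Rhbdf2, which encodes iRhom2, the partner that carries the Adam17 protein to the surface, read 10.19 and 10.40 in the DKO runs and 10.14 and 10.01 in the WT runs, a difference of 0.22. Ptpra, which encodes a receptor-type tyrosine phosphatase, read 13.08 and 13.07 in the DKO runs and 13.20 and 13.26 in the WT runs, a difference of -0.155. The substrate gene Tnf read 10.25 and 10.72 in the DKO runs and 10.38 and 10.43 in the WT runs, which overlapped, as did Il6ra, Csf1r and Mapk14. Of the 20 ligands and partners of the urokinase receptor, 6 had a site. Lrp1 and Igf2r, receptors that take up protease complexes or bind the urokinase receptor, had both DKO runs above, by 0.125 and 0.135. The integrin genes Itgb2 and Itgav overlapped.

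**Figure D5:**
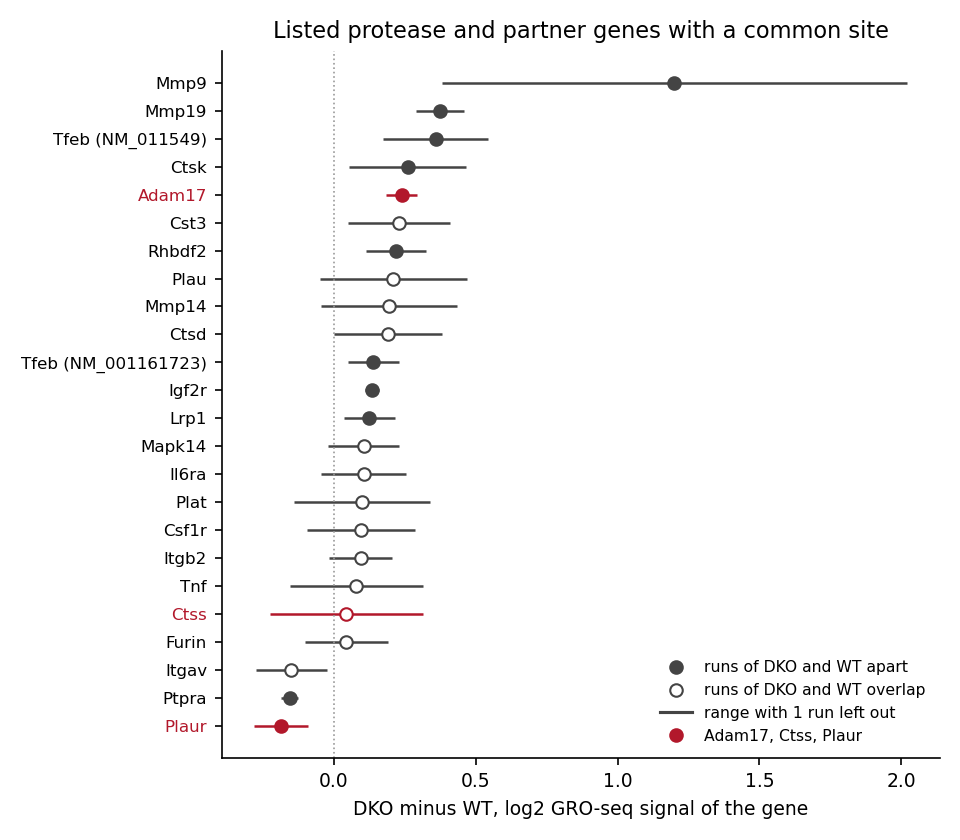
Difference in gene-level log2 GRO-seq signal (DKO minus WT) for 24 of the 25 listed gene IDs with a common site. Points are differences of means of 2 runs, filled where the runs of the genotypes do not overlap, lines are the range with 1 run left out, and the 3 members are red. Plaur has the lowest difference (-0.185) and Mmp9 the highest (1.2), with the widest line.

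At sites of the listed genes, 5'GRO-seq differences of 1 or more were about as frequent as at all sites. Of their 32 sites, 6 were lower by 1 or more with tagged RevErbalpha and 1, at Plaur, was higher, against 20.0% and 4.92% of all sites, and their median was -0.02, against -0.23. The Mmp9 site, 5288 bp upstream, read 2.62 with tagged RevErbalpha and 5.99 in control cells. The Rhbdf2 site read 5.91 with tagged RevErbalpha and 7.36 in control cells. The Plau site, 6717 bp upstream, read 6.70 with tagged RevErbalpha and 6.69 in control cells, so the ligand's site did not show the difference seen at the receptor's start. That contrast was not tested. Sites of Ptpra, Itgav and Mmp14 were also lower by 1 or more, with differences of -1.31, -1.15 and -1.14. The Mmp14 site had little signal, at 1.04 with tagged RevErbalpha and 2.18 in control cells. No counting interval is given for these listed sites.

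Sites and genes most like the members were found by Euclidean distance between log2 values. Over the 7 libraries with values at sites, the Adam17 site was closest to sites of Dhx30 (1.34), Blnk (1.38) and Lonrf3 (1.66). The Ctss site was closest to sites of Acvr2a (0.71), Axl (0.77) and Cmas (0.84). The Plaur site 11634 bp upstream was close to sites of Etnk1 (1.83) and Fbxo11 (1.91), both with GRO-seq values under 1. The 5'GRO-seq values were among those used for the distance. Over the 4 gene-level runs the distance uses levels that were not centred, in which gene length may enter. It therefore marks genes of similar level. Adam17 was closest to Ap3d1 (0.08) and Plxna1 (0.13). Ctss was closest to Irf8 (0.13), Txnip (0.15) and Ap1b1 (0.23). Plaur was closest to Tmem43 (0.14), Slc25a25 (0.15) and Anks3 (0.16).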

How the data were processed

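The authors mapped reads to mm9, with Bowtie 0.12.7 and HOMER named in the submitters' processing notes. The deposited values are log2: per the file headers, ChIP-seq tags were scaled to 10000000 in 157 bp and 5'GRO-seq tags in 500 bp, and GRO-seq signal at sites and genes with no further scaling given. Peak calling settings, mark cut-offs and the list of gene starts are not given here, nor whether any run was treated. Distances and classes are other values deposited by the authors.

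Means and differences were computed from the run columns (pandas 2.3.3, numpy 2.4.6), and the authors' own mean and difference columns were not used. Every per-sample column was matched to a sample (0 left over). Tags were taken back as the linear value less 1, times the total over 10000000. A random part below 1 tag seems to be included, so they are approximate. Exact Clopper-Pearson 95% intervals (scipy 1.17.1) of tag shares used rounded tags and cover counting error only. A site was counted as higher or lower at 1 on the log2 scale, and a gene at 0.5 with the runs of the genotypes apart. The gene rule and the interval were tested on simulated data. Runs were averaged on the log2 scale, and groups have 1 sample, so no test was made. Gene symbols came from RefSeq (GRCm38.p6), used for names and promoter sequence only.

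All sites and genes of the 3 members are named. Listed genes with a site could be named, as could the 3 sites and genes closest to each member, but some of these are not reported here. The members and lists were chosen with earlier results of these data known. The alternatives were other runs, added values, centring, size rules and a filter at the lower quartile of level.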

Additional observations from a re-analysis of the deposited data

How the results depend on the processing

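Of the alternatives tried, most moved a value by less than the spread of runs or the counting interval. GRO-seq at sites has 1 value per genotype, so the pooled SD of gene-level runs (0.23) was used there. That SD measures neither a spread of runs nor a counting error of the site values. With only the deep ChIP-seq runs, RevErbalpha minus RevErbbeta was -3.22 at Adam17 and -1.02 at Ctss. The lower median of the deep RevErbalpha run over all sites enters both values. With 10 added before the logarithm, the GRO-seq difference at the Plaur site 11634 bp upstream was 0.0677 and the 5'GRO-seq differences at the other Plaur sites were -0.41 (far upstream) and -0.77 (start). Of the 5 sites, 2 were lower by 0.5 or more with tagged RevErbalpha. The count of sites higher by 1 or more was 0 both with 10 added and above the lower quartile of level, which the Plaur sites 20007 and 11634 bp upstream did not reach. Of the 32 sites of listed genes, 11 were lower and 4 higher by 0.5 or more, and 3 lower and 0 higher by 1 or more with 10 added. Above the lower quartile 0 were higher. Over all sites the counts lower and higher were 561 and 223 at 0.5, 181 and 34 with 10 added, and 176 and 41 above the lower quartile. Of listed genes, 4 were higher in DKO at 0.25 and 0 above the lower quartile. The cause of these changes was not tested, beyond fewer sites or genes being counted under the filter. With 1 run left out, binding ranged from 7.02 to 7.71 at Adam17, 5.56 to 6.15 at Ctss and 3.66 to 4.69 at the Plaur start. RevErbalpha minus RevErbbeta ranged from 0.01 to 1.19 at Ctss, 0.11 to 1.25 and -0.85 to 0.615 at the Plaur sites 20007 and 11634 bp upstream, and -1.03 to 1.10 at the Plaur start. No paired analysis was possible because each group has 1 sample. Depth limits the upstream Plaur sites most, where about 4.72 to 22.4 tags lay behind each 5'GRO-seq value.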
